A study of Sus scrofa with 28 samples.

Results

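This account sets the median lobe of the left lung of 4 swine that had inhaled a medium dose of sulfur mustard against the same lobe of 3 swine that had inhaled air. The 7 arrays were chosen by their labels, as median lobe with medium exposure (animals 34, 39, 41 and 42) and median lobe with air (animals 28, 29 and 44), and they are 7 of the 28 arrays of the series, with 1 array per animal. All animals were female, fasted before the experiment with free access to water, anesthetized, intubated and exposed while lying supine for 10 min. Medium animals received sulfur mustard vapor at 100 µg/kg and air animals breathed air under the same anesthesia, and a low-dose group of 3 animals (60 µg/kg, animals 31, 32 and 33) contributed to the estimate of the spread and is described near the end. The lobes were taken 12 h after exposure, kept in RNAlater, and their RNA was hybridized to the Affymetrix porcine GeneChip. No unexposed animal without anesthesia was analysed here, so what anesthesia, intubation and fasting did is shared by both groups.

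Sulfur mustard is a vesicant that adds alkyl groups to DNA, RNA and proteins. In the airways it strips the lining epithelium, lets plasma protein leak and clot in the lumen, and draws in inflammatory cells. Alkylated DNA stalls replication and transcription and engages the p53 pathway, while injured epithelium and endothelium expose tissue factor, which starts coagulation.

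Values below are deposited signals on a linear scale, given per animal in the order of animal number, followed by the difference of medium minus air with its standard error. Differences are on the log2(signal + 16) scale after quantile normalization, so they understate the change of dim probe sets. Unless stated otherwise, p-values are from limma, adjusted by Benjamini and Hochberg over 23999 probe sets, and a probe set was called at an adjusted p under 0.05. They measure the spread between these animals, and the number of arrays limits the precision. In pieces of whole lobe, fewer cells of a type and less RNA per cell cannot be told apart.

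Median signals were between 56.5 and 61.9 on the medium and air arrays and between 61.9 and 64.1 on the low-dose arrays of the median lobe. SFTPC, a surfactant protein made by alveolar type 2 cells, was bright on all 7 arrays, with 2721, 3481, 3154 and 3320 in medium animals and 2914, 2511 and 3335 in air animals. RNA integrity was followed through the control probe sets for actin and GAPDH, by averaging over both genes the log2 excess of the 3' end over the 5' end, which is higher where RNA is less intact. This index was 0.687, 2.39, 1.42 and 0.812 in medium animals, against 1.20, 0.684 and 1.04 in air animals, so that medium animal 39 stood apart. The means differed by 0.35 (exact permutation p = 0.6, two-sided, 35 splits), and by -0.000847 without medium animal 39. The mean correlation with the other median-lobe arrays was lowest for medium animals 41 (0.967) and 39 (0.969), against 0.974 to 0.981 for the rest of the 10 median-lobe arrays, low dose included.

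Among 23999 probe sets, 97 (0.404%) passed in medium against air, of which 56 (0.233%) were higher and 41 (0.171%) were lower, and in all 97 the medium and air animals did not overlap, which held for 7.41% of all probe sets on the higher and 7.69% on the lower side. The tissue factor gene F3, the DNA damage gene GADD45G, the keratin KRT18 and the ribosome assembly gene NOP56 rose, while the ubiquitin ligase gene FBXO32, the adhesion gene TNS3 and the detoxification enzyme EPHX1 fell. Of the called probe sets 44 had a single gene symbol, standing for 42 genes, 25 higher and 17 lower, and 53 had no single symbol. By the brightest probe set of each symbol, 29 of 6765 (0.429%) passed. With 18.6% of all probe sets at an unadjusted p under 0.05, the count of calls rested on small margins, and the smallest adjusted p was 0.0307. No probe set was called by limma without air animal 28, without air animal 29 or without medium animal 41, where 3727, 2881 and 3666 had an unadjusted p under 0.05, and none in a fit of the 7 arrays alone (3828). Without air animal 44, 8 were called, without medium animal 42, 4, and without medium animal 39, 11, while without medium animal 34 the count was 398 and held all 97. With median-centred arrays 62 were called, 44 higher and 18 lower, and an offset of 1 in place of 16 left 12, 3 higher and 9 lower. With the RNA integrity index as a covariate 6 were called, of which 4 were among the 97. Every one of the 97 that was tested kept its sign in each of the 16 alternatives. Because the groups of all 97 did not overlap, leaving out an animal could not change a sign, so this is no measure of stability.

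**Figure D1:**
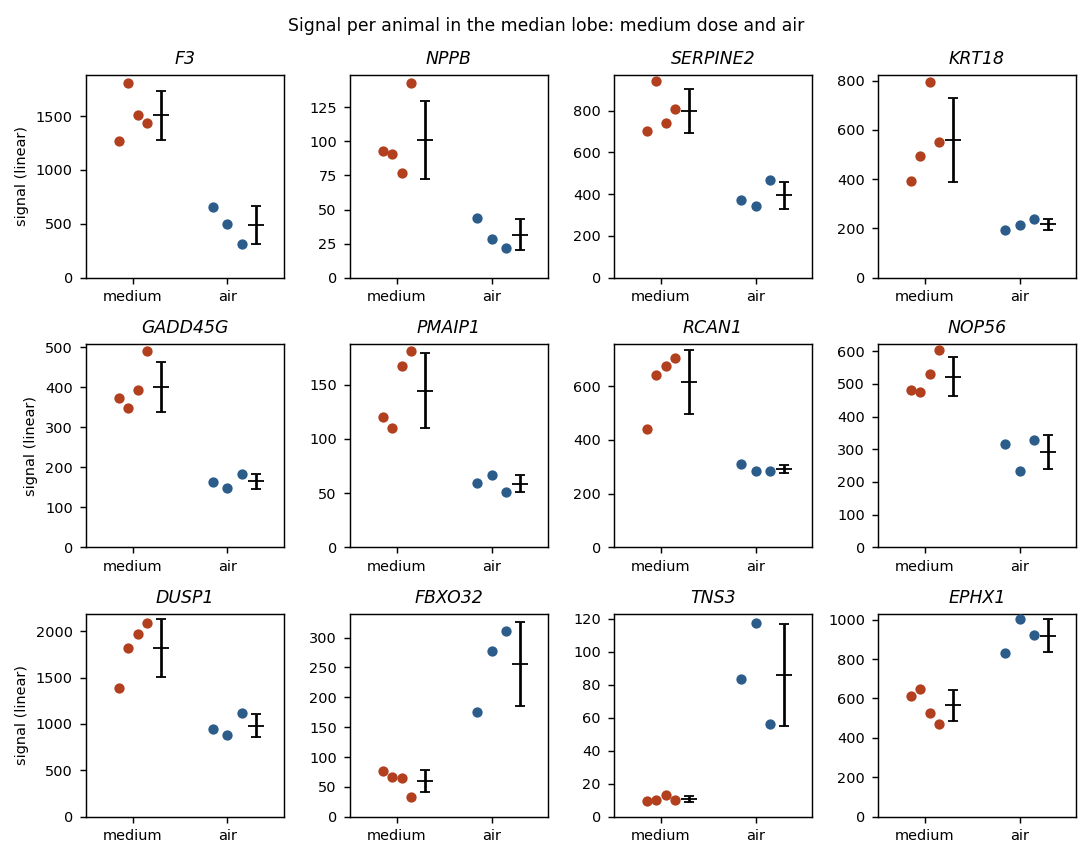
Deposited signal on a linear axis in the median lobe for 12 called genes, with 1 point per animal, medium animals in red on the left and air animals in blue on the right, and the mean ± SD beside each group (n = 4 and 3). In every panel the points of the 2 groups do not overlap: F3 lay between 1264 and 1810 in medium animals and between 310.1 and 655.5 in air animals, and FBXO32 between 32.6 and 76.2 in medium animals and between 176.0 and 311.0 in air animals.

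F3, which encodes tissue factor, the membrane receptor that starts clotting, had signals of 1264, 1810, 1507 and 1439 in medium animals, against 655.5, 500.9 and 310.1 in air animals. Even the lowest medium animal was well above the highest air animal. The difference was 1.57 ± 0.26, or 2.98-fold (adjusted p = 0.0453), the largest rise among the called genes with a symbol. SERPINE2, a secreted inhibitor of thrombin and plasminogen activators, rose by 0.98 ± 0.15 (adjusted p = 0.0413), at 703.3, 941.6, 742.3 and 808.7 in medium animals and 373.8, 343.9 and 468.2 in air animals, again without overlap.

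Of the 6 measured genes of the list of coagulation starters and platelet adhesion, F3 alone was called and 1 other, the platelet-binding matrix protein THBS1, had groups that did not overlap. The brightest probe set of THBS1 had 1237, 1444, 2061 and 1820 in medium animals and 1042, 904.2 and 835.4 in air animals, a difference of 0.73 ± 0.18 (adjusted p = 0.0902). Its 4 other probe sets differed by 0.50 to 2.48, and none passed. The factor VIII carrier VWF differed by -0.20 ± 0.20.

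Among 11 measured anticoagulant and fibrinolysis genes, 5 had every medium animal above every air animal on the normalized scale and 1 had the opposite, with the same counts without medium animal 39. Over all 6765 measured symbols these shares were 8.46% higher and 9.98% lower (9.76% and 11.9% had an unadjusted p under 0.05 in each direction), and 11.1% and 14.6% without medium animal 39. Counts of genes apart in the other lists are to be read beside these shares. SERPINE2 was the single call among the 11 genes. PLAU, the urokinase activator of plasminogen, had 337.7, 337.3, 536.3 and 348.7 in medium animals and 185.9, 248.7 and 285.0 in air animals (0.66 ± 0.19, adjusted p = 0.114). PROCR, the endothelial receptor of protein C, differed by 0.54 ± 0.25 (adjusted p = 0.275). PROS1, the cofactor of activated protein C, was the gene on the lower side, at -0.36 ± 0.13 (adjusted p = 0.18).

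NPPB, the precursor of the B-type natriuretic peptide that relaxes vessels and is best known from the stretched heart, rose by 1.32 ± 0.20 (adjusted p = 0.0413). Its signals were 92.9, 91.1, 76.8 and 142.9 in medium animals and 44, 28.1 and 22.04 in air animals, and the groups were apart. The 10 measured markers of striated and heart muscle were set beside it. Their median difference was -0.03 and 0 were called, with 1 higher and 3 lower at an unadjusted p under 0.05. Their summed signal ranged from 290.7 to 372.9 in medium animals and from 324.5 to 404.8 in air animals. The cardiac troponin TNNT2 was at or below 1.53 on all 7 arrays, so the sum came almost wholly from other members. Of the 14 measured vasoactive and prostaglandin genes, NPPB was the single call, and the endothelial nitric oxide synthase NOS3 differed by 0.51 ± 0.19 (adjusted p = 0.202). EDN1, the precursor of the vessel constrictor endothelin, overlapped between groups at 107.7, 167.6, 301.4 and 382.7 in medium animals and 191.1, 154.4 and 100.4 in air animals.

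Genes of the DNA damage response were mixed in direction. GADD45G, a small stress protein that binds cell cycle and MAP kinase regulators, rose by 1.21 ± 0.13, with the smallest adjusted p (0.0307) of the called genes with a symbol. Its signals were 372.4, 348.6, 394.0 and 490.8 in medium animals and 162.5, 146.9 and 184.3 in air animals, and the groups did not overlap. It passed in 12 of the 16 alternatives, the most of any named gene, and the call was lost without air animals 28 or 29, without medium animal 41 and with the 7 arrays alone.

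PMAIP1, also called NOXA, a BH3-only protein that p53 induces to open the mitochondrial path to cell death, rose by 1.11 ± 0.17 (adjusted p = 0.0413). Medium animals had 120.2, 109.6, 167.4 and 180.9 and air animals 58.9, 66.5 and 50.8. GADD45B had 295.4, 225.6, 551.4 and 564.6 in medium animals and 163.1, 144.5 and 153.9 in air animals, and the cell cycle inhibitor CDKN1A had 220.5, 315.9, 411.8 and 306.0 in medium animals and 199.0, 152.9 and 137.9 in air animals. For both the groups were apart, with differences of 1.23 ± 0.28 (adjusted p = 0.0761) and 0.86 ± 0.18 (adjusted p = 0.0719) that did not pass. GADD45A, the third member of its family, differed by 0.79 ± 0.31 (adjusted p = 0.208), with medium animals 41 and 42 at 619.2 and 685.3 and the other 2 at 302.6 and 262.9, against 231.9 to 254.5 in air animals.

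In all, 20 p53 targets and damage response genes were measured. GADD45G and PMAIP1 were called, 5 had all medium animals above all air animals and 4 had all of them below, and the median difference was 0.12, or -0.02 without medium animal 39. The 4 lower genes were SESN1, PHLDA3, DDB2 and FDXR, all known p53 targets, at -0.44, -0.47, -0.33 and -0.48, and none passed. Canonical targets such as BAX (0.25 ± 0.26), CCNG1 (-0.39 ± 0.15) and XPC (-0.01 ± 0.12) overlapped between groups. Of 16 DNA repair genes 0 were called by limma, and 11 had a difference below 0, with a median of -0.10. At an unadjusted p under 0.05, 1 was higher and 2 were lower. The higher gene was APEX1, the endonuclease that cuts abasic sites left after damaged bases are removed. It had the smallest adjusted p of the 16 (0.44 ± 0.08, adjusted p = 0.0576), at 385.0 to 461.0 in medium animals and 304.0 to 323.1 in air animals. Of 13 genes of the BCL2 and caspase families 0 were called and 0 were apart between groups, and CASP1, the caspase that activates interleukin 1, had the largest of these differences and the 1 unadjusted p under 0.05, -0.83 ± 0.25 (adjusted p = 0.128).

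Immediate early genes encode transcription factors and their brakes and are switched on without new protein synthesis. Of 17 measured, 15 had a difference above 0, with a median of 0.68 against -0.02 over all symbols, and 10 had all medium animals above all air animals and 0 the reverse (11 and 1 without medium animal 39). DUSP1, the phosphatase that switches off MAP kinases, was the single call (0.81 ± 0.14, adjusted p = 0.0493), at 1387, 1819, 1973 and 2091 in medium animals and 947.0, 880.3 and 1119 in air animals.

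FOS, the partner of JUN in the AP-1 transcription factor, had 1234, 1311, 903.9 and 673.8 in medium animals and 482.2, 321.9 and 244.4 in air animals. All medium animals were above the air animals, yet the difference of 1.499 ± 0.30 missed the threshold (adjusted p = 0.0607). EGR1, a zinc finger factor induced by growth signals, differed by 1.15 ± 0.28 (adjusted p = 0.0917), JUN by 0.82 ± 0.18 (adjusted p = 0.0749) and MYC, the factor that drives ribosome production, by 0.83 ± 0.17 (adjusted p = 0.0689). MYC had 295.6, 277.3, 437.1 and 443.2 in medium animals and 229.1, 176.4 and 180.3 in air animals. KLF2 (-0.24 ± 0.10) and NR4A2 (-0.01 ± 0.13) were the 2 genes below 0.

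RCAN1, an inhibitor of the calcium-dependent phosphatase calcineurin, rose by 1.02 ± 0.16 (adjusted p = 0.0413), at 442.0, 640.5, 676.4 and 703.8 in medium animals and 309.2, 283.4 and 282.3 in air animals. Medium animal 34 was the lowest of the 4 here and still above the air animals, which differed little among themselves. A dimmer probe set of RCAN1 differed by 0.61 (adjusted p = 0.326).

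Glucocorticoid responsive genes split the medium animals. FKBP5, a co-chaperone of the glucocorticoid receptor and one of its most sensitive targets, had 97.8, 85.4, 471.4 and 608.7 in medium animals 34, 39, 41 and 42, against 135.8, 108.8 and 89.2 in air animals. Animals 41 and 42 were far above the air animals, and 34 and 39 were within or below their range. PER1, a clock gene that glucocorticoids induce, showed 397.2, 473.1, 1314 and 1287 in medium animals and 378.6, 294.4 and 304.2 in air animals, and KLF9, another receptor target, 425.1, 352.8, 1367 and 1605 in medium animals and 476.5, 475.2 and 384.0 in air animals. PDK4, which holds back glucose oxidation in fasting, was even lower in animals 34 and 39 (91.0 and 66.0) than in any air animal (128.8 to 206.3), while 41 and 42 had 696.9 and 592.3.

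The same animals stood out in their other lobes. In the caudal lobe FKBP5 was 102.9 in medium animal 34, 613.1 in animal 41 and 637.5 in animal 42, against 114.9 to 145.6 in air animals, and in the apical lobe it was 139.4 in animal 34, 136.5 in animal 39 and 687.1 in animal 42, against 82.7 to 168.5 in air animals. Because of this split, large differences came with large errors: FKBP5 differed by 0.96 ± 0.59, PER1 by 1.15 ± 0.42 and KLF9 by 0.72 ± 0.45, and none passed. Of 16 measured genes of the list, 13 had a difference above 0 with a median of 0.48, 3 had groups apart on the higher side (PER1, ANGPTL4 and DUSP1) and DUSP1 was the single call.

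**Figure D2:**
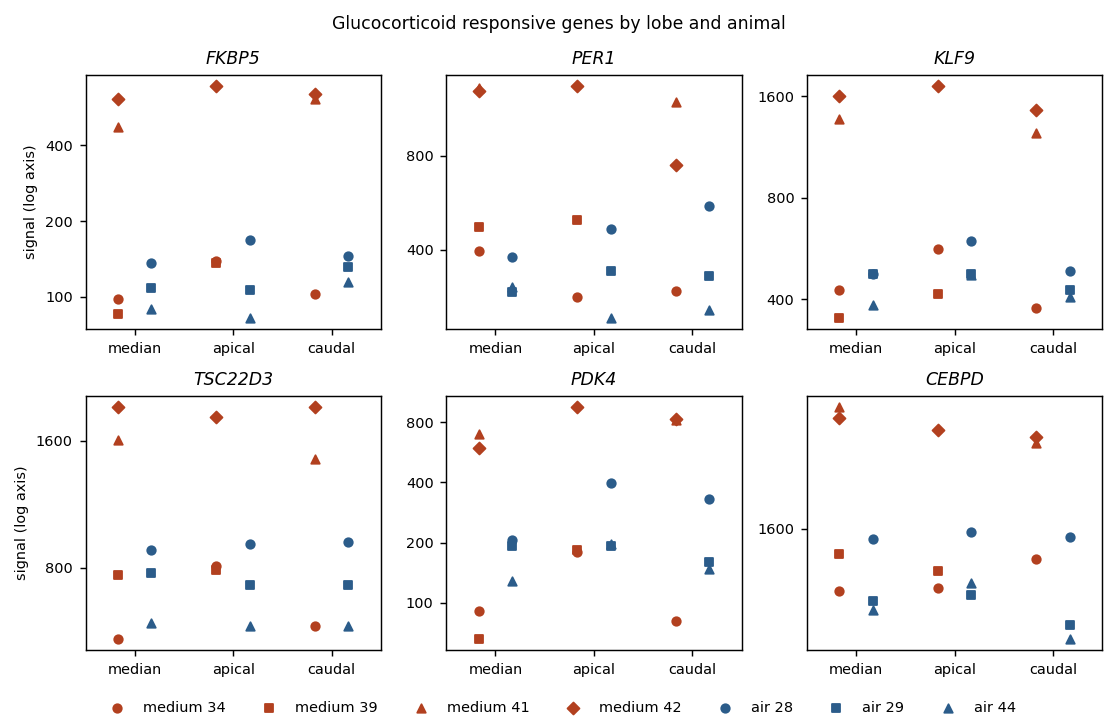
Deposited signal on a log axis for 6 glucocorticoid responsive genes in the median, apical and caudal lobes, with medium animals in red to the left of air animals in blue and 1 symbol shape per animal. The genes were chosen for display after their values were seen. In every lobe in which they were measured, medium animals 41 and 42 lie above the air animals and medium animals 34 and 39 lie among or below them, except for PER1 in the median and apical lobes of animal 39 and in the median lobe of animal 34, which were above all air animals.

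Ribosome assembly genes were the list with the greatest share of separated genes. NOP56, a core protein of the box C/D particles that guide methylation of ribosomal RNA, rose by 0.81 ± 0.14 (adjusted p = 0.0493), at 481.9, 473.8, 530.5 and 603.4 in medium animals and 315.1, 232.3 and 328.3 in air animals. Of 21 genes measured, 19 had a difference above 0 with a median of 0.49, and in 16 every medium animal was above every air animal, with 0 the other way. The counts of 16 and 0 were the same without medium animal 39. Because NOP56 was the single call, most of these differences did not pass one by one.

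Several members came close. Among these, NME1 was counted in the list although it is a nucleoside diphosphate kinase. Its signals were 473.7, 531.8, 418.8 and 579.4 in medium animals and 330.7, 231.7 and 249.2 in air animals (0.85 ± 0.16, adjusted p = 0.0527). GNL3, a nucleolar GTPase of proliferating cells, differed by 0.89 ± 0.20 (adjusted p = 0.0749), PPAN, a factor of the large subunit, by 0.79 ± 0.17 (adjusted p = 0.07), and PNO1, a factor of the small subunit, by 0.55 ± 0.12 (adjusted p = 0.0792). FBL, the methyltransferase partner of NOP56, had 820.5, 801.4, 843.2 and 982.2 in medium animals and 664.6, 541.1 and 676.4 in air animals (0.43 ± 0.12, adjusted p = 0.114). NPM1, the gene of a nucleolar protein, had a bright probe set and was level at 2062 to 2332 in medium animals and 1993 to 2191 in air animals.

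Further called genes with roles in the nucleolus or in translation lay outside this list, and those after BZW2 were noted after their values were seen. They were picked by role from the called genes and are no separate support for the list. How many measured genes have such roles was not counted. GPATCH4, a nucleolar G-patch protein, rose on both of its probe sets, by 0.82 ± 0.11 and 0.66 ± 0.10 (adjusted p = 0.0413 for each). BZW2, a regulator of start codon choice, rose by 0.86 ± 0.13 (adjusted p = 0.0413), at 279.4 to 385.6 in medium animals and 161.6 to 186.9 in air animals. LTV1, which helps export and mature the small subunit, rose by 0.63 ± 0.09, RSL1D1, a nucleolar L1-domain protein, by 0.73 ± 0.11, PAK1IP1, a nucleolar WD-repeat protein, by 0.72 ± 0.12, and AATF, a partner in processing of small subunit RNA, by 0.58 ± 0.08. POLR1D, a subunit shared by RNA polymerases I and III, went the other way and fell by 0.67 on the log2 scale (SE 0.11, adjusted p = 0.0473), at 238.0, 221.7, 220.8 and 195.8 in medium animals and 393.5, 384.5 and 300.7 in air animals.

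EIF4H, a helper of the helicase that unwinds messenger RNA, was called on 1 of 2 probe sets only. That one had 113.4, 136.7, 160.1 and 124.3 in medium animals and 64.7, 39.6 and 57.1 in air animals (1.13 ± 0.14, adjusted p = 0.0413). The other and much brighter one averaged 1495 in medium animals and 1513 in air animals and differed by -0.06 (adjusted p = 0.703), so the probe sets disagree about the gene.

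**Figure D3:**
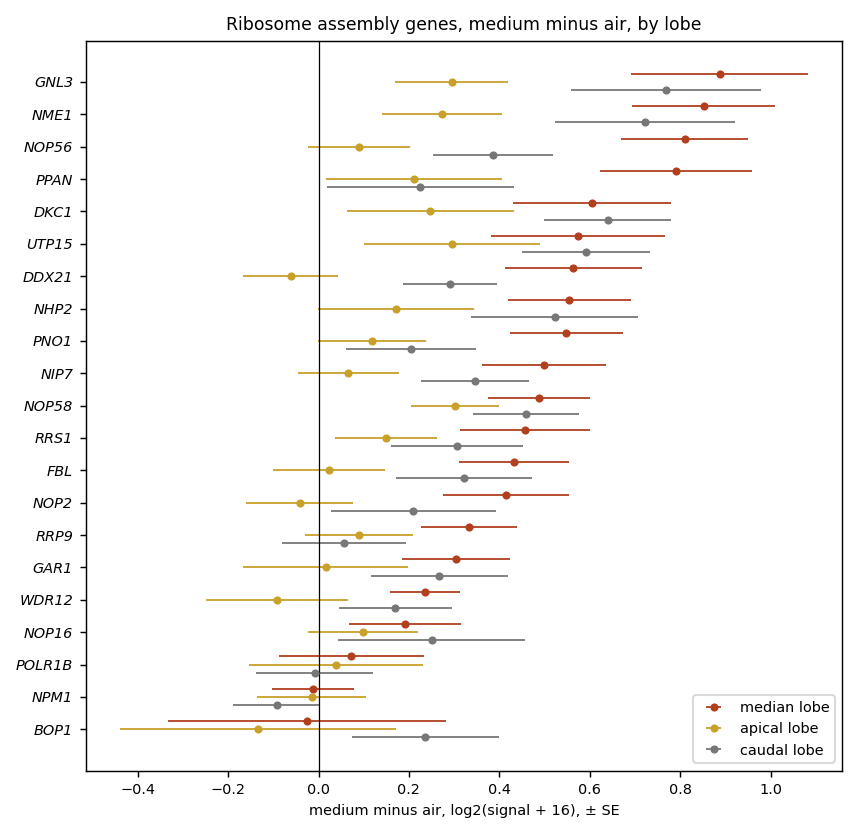
Difference of medium minus air on the log2(signal + 16) scale, ± SE, for the 21 measured ribosome assembly genes in the median lobe (red, 4 against 3 animals), the apical lobe (yellow, 3 against 3) and the caudal lobe (grey, 3 against 3). In the median lobe 19 of 21 points lie right of 0, with a median of 0.49, against medians of 0.09 in the apical and 0.29 in the caudal lobe. The lobes come from the same animals.

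KRT18, the acidic keratin of simple epithelium, rose by 1.28 ± 0.20 (adjusted p = 0.0413), at 394.3, 495.9, 795.2 and 553.1 in medium animals and 195.7, 213.3 and 239.5 in air animals. Its partner KRT8 had 855.1, 1235, 1525 and 1142 in medium animals and 685.7, 704.7 and 624.2 in air animals (0.75 ± 0.16, adjusted p = 0.0749). For both keratins animal 41 was the highest and animal 34 the lowest of the medium animals, and neither overlapped with air. The other airway secretory and basal cell markers overlapped between groups, and the summed signal of the 9 measured ranged from 6148 to 7208 in medium animals and from 5833 to 7169 in air animals.

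TNFRSF12A, the receptor of the cytokine TWEAK, which is induced by growth factors in damaged tissue, had 510.1, 563.6, 714.6 and 656.9 in medium animals and 254.3, 122.5 and 133.5 in air animals. It had one of the larger differences on the array, 1.81 ± 0.35, and did not pass (adjusted p = 0.0601). HBEGF, a membrane-bound ligand of the EGF receptor, had 85.5, 85.6, 103.7 and 100.3 in medium animals and 57.3, 48.2 and 56.7 in air animals (0.69 ± 0.12, adjusted p = 0.0521), and AREG, another such ligand, had 12.8, 22.01, 49.6 and 44.5 in medium animals and 8.05, 3.43 and 0.998 in air animals (1.20 ± 0.26, adjusted p = 0.07). Of the 10 measured EGF receptor ligands and wound genes, 0 were called by limma, 6 had an unadjusted p under 0.05, and 5 had the groups apart on the higher side and 0 on the lower (7 and 0 without medium animal 39), with a median difference of 0.68. EGFR itself differed by 0.05 ± 0.13.

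Of 5 measured genes that respond to the mechanosensing factors YAP and TEAD, F3 was called and 3 were apart on the higher side. ANKRD1, a stretch-induced ankyrin repeat protein, had 1188, 1827, 1074 and 1455 in medium animals and 440.8, 601.9 and 161.5 in air animals, with a wide error (1.84 ± 0.64, adjusted p = 0.173). The matrix protein gene CYR61 differed by 0.77 ± 0.27 (adjusted p = 0.173). ADAM15, a membrane protease of epithelium and endothelium, rose by 0.91 ± 0.15 (adjusted p = 0.0483), and COL8A1, a short-chain collagen of vessel walls, by 0.86 ± 0.12 (adjusted p = 0.0413) on its brightest probe set, while 3 dimmer ones differed by -0.04 to 0.32. Among 20 matrix genes COL8A1 was the single call, and TIMP1, an inhibitor of matrix proteases, was high in medium animal 41 (2252) and overlapped with air elsewhere.

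The mucin MUC1, carried on the surface of alveolar type 2 and airway cells, had 118.7, 77.5, 124.4 and 101.1 in medium animals and 207.5, 202.1 and 165.6 in air animals on its brighter probe set. The groups were apart, and the difference of -0.76 ± 0.13 fell just short (adjusted p = 0.0513), while a dimmer probe set with means of 24.1 in medium animals and 20.6 in air animals differed by 0.11. The 4 measured surfactant protein genes overlapped between groups: SFTPC differed by 0.06 ± 0.08, SFTPD by 0.14 ± 0.09, SFTPB by -0.03 ± 0.43 and SFTPA1 by -0.32 ± 0.29. Medium animal 39 was the lowest for SFTPB (189.9, the other medium animals 475.9 to 854.1) and for SFTPA1 (730.2, the others 1197 to 1874). Of the 9 type 2 markers 0 were called by limma, and 2, MUC1 and CEBPA (-0.39 ± 0.17), had an unadjusted p under 0.05. The median over 9 type 2 markers was -0.26, and -0.05 without medium animal 39 or -0.04 with the RNA integrity index as a covariate. All 6 measured ciliated cell markers had a difference below 0 (median -0.39), 0 were called, 2 had an unadjusted p under 0.05 and 1, CAPSL, was apart (-0.48 ± 0.18, adjusted p = 0.204). Their summed signal ranged from 941.4 to 1236 in medium animals and from 1122 to 1465 in air animals, and how many ciliated cells each piece held was not tested.

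Genes of amino acid supply and protein folding gave near calls. CKAP4, an anchor of the rough endoplasmic reticulum that also acts as a surface receptor, rose by 1.16 ± 0.17 (adjusted p = 0.0413), at 465.6, 432.5, 448.3 and 503.2 in medium animals and 238.6, 176.5 and 188.6 in air animals. Its other 2 probe sets, the brightest of the gene among them, differed by 0.82 (adjusted p = 0.0519) and 0.49 and did not pass. SLC7A1, a carrier of arginine and lysine, had 268.6, 310.5, 373.6 and 383.5 in medium animals and 213.5, 176.1 and 181.4 in air animals (0.75 ± 0.14, adjusted p = 0.0527), and PYCR1, the last enzyme of proline synthesis, differed by 1.08 ± 0.24 (adjusted p = 0.0749). Of 14 measured amino acid response genes of ATF4, 5 were apart on the higher side and 1 on the lower, and 0 were called by limma (7 at an unadjusted p under 0.05). Of 16 endoplasmic reticulum chaperone genes, CKAP4 included, 0 were called by limma on their brightest probe set. At an unadjusted p under 0.05, 5 were higher and 1 lower. On the higher side 5 were apart and on the lower 0, among them MANF (0.57 ± 0.15, adjusted p = 0.106), while the stress sensor target DDIT3 (-0.12 ± 0.17) and XBP1 (0.04 ± 0.09) overlapped.

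Other called genes with higher signal had varied roles. TSKU, a secreted leucine-rich protein, rose by 0.98 ± 0.15 with little spread, at 552.9 to 622.7 in medium animals and 259.4 to 324.8 in air animals (adjusted p = 0.0413). OSBPL3, an oxysterol-binding protein at membrane contacts, rose by 0.96 ± 0.16 (adjusted p = 0.0483). Noted after their values were seen, EP400, a chromatin remodeler, TAF9, a subunit of basal transcription complexes, HSPA14, a ribosome-associated chaperone, and the serotonin receptor gene HTR2B were called too, by 0.71, 0.67, 0.59 and 0.55. HTR2B was dim, with 17.0 to 25.4 in medium animals and 6.54 to 12.1 in air animals, and a second probe set of EP400 differed by -0.04.

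FBXO32, also called atrogin-1, encodes a substrate receptor of a ubiquitin ligase that is known for breaking down muscle protein under the control of FOXO factors. It fell by 1.82 on the log2 scale (SE 0.27, adjusted p = 0.0413), at 76.2, 66.2, 65.2 and 32.6 in medium animals and 176.0, 278.2 and 311.0 in air animals. Its second probe set, with a mean of 9.90 in medium animals and 73.6 in air animals, differed by -1.72 and came just short (adjusted p = 0.0501). Of 11 FOXO and fasting responsive genes, 3 were apart on the lower side and 0 on the higher: FBXO32, the transcriptional coregulator CITED2 (-0.64 ± 0.20, adjusted p = 0.146) and the cyclin CCNG2 (-0.61 ± 0.18, adjusted p = 0.122). The median of the list was 0.04, and KLF9 and PDK4 in it showed the split between medium animals described above.

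TNS3, a tensin that links integrin adhesions to the actin cytoskeleton, fell on 2 of its 3 probe sets, by 1.88 and 1.01 on the log2 scale (adjusted p = 0.0413 and 0.0493). The first had 9.53, 10.4, 13.1 and 10.1 in medium animals and 83.6, 117.8 and 56.6 in air animals, and the second 170.6, 148.7, 138.3 and 108.9 in medium animals and 313.0, 351.3 and 255.5 in air animals. The third and brightest averaged 862.8 in medium animals and 1200 in air animals and differed by -0.48 (adjusted p = 0.0857), so all had the same sign with unequal size.

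EPHX1, the microsomal epoxide hydrolase that opens reactive epoxides, fell by 0.69 on the log2 scale (SE 0.12, adjusted p = 0.0484), at 613.7, 646.7, 526.9 and 470.9 in medium animals and 831.7, 1001 and 924.3 in air animals. Among 14 genes of the xenobiotic enzyme list it was the single call, and 5 had a difference above 0 and 9 below. AHR, the receptor of dioxin-like compounds, was the other gene apart on the lower side (-0.41 ± 0.16, adjusted p = 0.207). The shares apart were 14.3% lower and 7.14% higher (2 genes and 1 gene), against 9.98% and 8.46% over all symbols. The glutathione transferase MGST1 differed by -0.38 ± 0.15 (adjusted p = 0.214). Of 21 targets of the oxidative stress factor NRF2, 0 were called by limma, with 2 at an unadjusted p under 0.05, and HMOX1, the heme-degrading enzyme, was level at 749.0 to 879.8 in medium animals and 753.5 to 1011 in air animals.

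The remaining falls were smaller or dim. FAM162B, a gene of little known function, fell by 0.79 on the log2 scale (695.5, 741.9, 500.3 and 618.3 in medium animals, and 1171, 1045 and 1070 in air animals), and CNRIP1, a protein that binds the cannabinoid receptor, by 0.60. MLLT3, a reader of acetylated histones in the elongation complex, fell by 0.57, although a dimmer probe set differed by 0.15, and ANAPC16, a subunit of the anaphase-promoting complex, by 0.55. FBXL4, a mitochondrial F-box protein, fell by 0.65, FOLH1B, a relative of folate hydrolase, by 0.73, and the unnamed locus LOC100621559 by 0.89. The ketone body enzyme BDH1 (-0.69), the leukemia-associated gene BAALC (-0.57), the F-box gene FBXW9 (-0.85) and neuromedin B, NMB (-0.997), were dim, with means of 1.84, 2.29, 12.3 and 6.48 in medium animals and 12.5, 10.8, 33.96 and 28.5 in air animals. BORCS6 (-0.53), a lysosome-positioning factor, and BBX (-0.45), an HMG-box protein, were named after their values were seen.

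Among inflammatory cytokines and chemokines, 22 were measured, 0 were called by limma and 8 had an unadjusted p under 0.05, with 4 apart on the higher side, 1 on the lower, and a median of -0.12. CCL2, which attracts monocytes, had 1191, 880.5, 1733 and 1130 in medium animals and 730.2, 277.3 and 417.2 in air animals (1.37 ± 0.32, adjusted p = 0.0812). CXCL8, the main attractant of neutrophils, had 69.9, 82.5, 154.1 and 97.7 in medium animals and 63.4, 44.9 and 40.8 in air animals (0.83 ± 0.24, adjusted p = 0.115). LIF, a cytokine of the interleukin 6 family, was dim and apart, at 23.1 to 50.8 in medium animals and 11.3 to 18.9 in air animals (0.76 ± 0.19, adjusted p = 0.0902).

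IL6 rested largely on 1 animal, with 33.2, 22.4, 120.5 and 31.1 in medium animals and 22.2, 10.4 and 20.1 in air animals (0.84 ± 0.38, adjusted p = 0.27). IL1B overlapped at 54.4 to 87.9 in medium animals and 49.0 to 88.2 in air animals (-0.06 ± 0.17), and the matrix-bound chemokine CXCL12 was the gene on the lower side (-0.80 ± 0.30, adjusted p = 0.204). Of 19 interferon stimulated genes 0 were called by limma, 0 had an unadjusted p under 0.05 and 0 were apart in either direction, with a median of -0.0015.

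Neutrophil markers did not separate the groups: of 8 measured, 0 were apart or called by limma (1 at an unadjusted p under 0.05), the median was 0.00, and the summed signal ranged from 2037 to 2600 in medium animals and from 1772 to 2184 in air animals. The brightest, S100A9, a calcium-binding protein of neutrophils and monocytes, differed by 0.32 ± 0.13 (adjusted p = 0.238), while the elastase ELANE was near background on all arrays (9.95 to 17.6 in medium and 13.7 to 20.4 in air animals). The summed signal of T and NK cell markers was below that of every air animal in all 4 medium animals, by little in animal 34. It was 2239 in animal 34, 1213 in animal 39, 1028 in animal 41 and 1532 in animal 42, against 2254 to 2693 in air animals. Of 15 measured, 12 had a difference below 0 with a median of -0.53, 3 were apart on the lower side and 0 were called by limma (6 at an unadjusted p under 0.05). GNLY, the cytotoxic granule protein granulysin, had 364.5, 169.9, 90.7 and 254.3 in medium animals and 553.3, 570.0 and 612.3 in air animals (-1.47 ± 0.37, adjusted p = 0.0966). GNLY is part of the sum, and animal 34 lay further below the lowest air animal in GNLY alone than in the sum. Leaving GNLY out, the sum of animal 34 would not lie below all air animals. LCK, the kinase of the T cell receptor, differed by -0.71 ± 0.24 (adjusted p = 0.16), and CD3E, a chain of that receptor, by -0.54 ± 0.16 (adjusted p = 0.128).

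Of 15 monocyte and macrophage markers, 3 were apart on the lower side (TYROBP, AIF1 and APOE, at -0.38, -0.43 and -0.25) and 0 on the higher, and the median was -0.11. The median was 0.01 without medium animal 39, in which the scavenger receptor MARCO was 149.9 against 341.2 to 626.1 in the other medium animals and 470.9 to 916.6 in air animals. KIT, the stem cell factor receptor of mast cells, had 189.1, 114.2, 88.9 and 175.0 in medium animals and 200.4, 298.7 and 504.4 in air animals (-1.09 ± 0.35, adjusted p = 0.145). Of the 3 measured mast cell markers, KIT included, 2 had a difference below 0 and 1 above, with a median of -0.43, and 1 was apart on the lower side. Their summed signal overlapped, at 497.4 to 593.0 in medium animals and 581.8 to 913.5 in air animals. JCHAIN, the chain that joins secreted antibodies, differed by -0.25 ± 0.08 (adjusted p = 0.151). No marker of an immune cell type in these lists was called.

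Several lists had medians near 0 or members that differed in both directions. The medians over 15 endothelial markers (0.06), 10 smooth muscle markers (0.10), 16 cell cycle genes (-0.03), 13 glycolysis and hypoxia genes (0.03) and 17 cytosolic and mitochondrial chaperones (0.21) came with 0 calls by limma and with 5, 1, 1, 0 and 3 genes at an unadjusted p under 0.05. Of the endothelial markers 3 were apart on the higher side (20%), ENG, ICAM1 and ESAM, at 0.55, 0.44 and 0.25, and 2 on the lower (13.3%), CLDN5 and ANGPT2, at -0.23 and -0.60. Over all symbols the shares apart were 8.46% higher and 9.98% lower. Shares that rest on counts as small as those in this paragraph are imprecise, and nothing is concluded from them. Of the chaperones 14 had a difference above 0, and 2, BAG3 and TCP1, were apart on the higher side. Of 10 sterol synthesis genes, 7 had a difference above 0, with a median of 0.22. At an unadjusted p under 0.05, 3 were higher and 0 lower, and 0 were called by limma. The desaturase SC5D alone was apart (0.58 ± 0.15, adjusted p = 0.102). Of 10 tight junction genes 2 were apart on each side (20%), with the claudins CLDN7 at 0.43 ± 0.14 (adjusted p = 0.15) and CLDN10 at -0.76 ± 0.24 (adjusted p = 0.147).

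**Figure D4:**
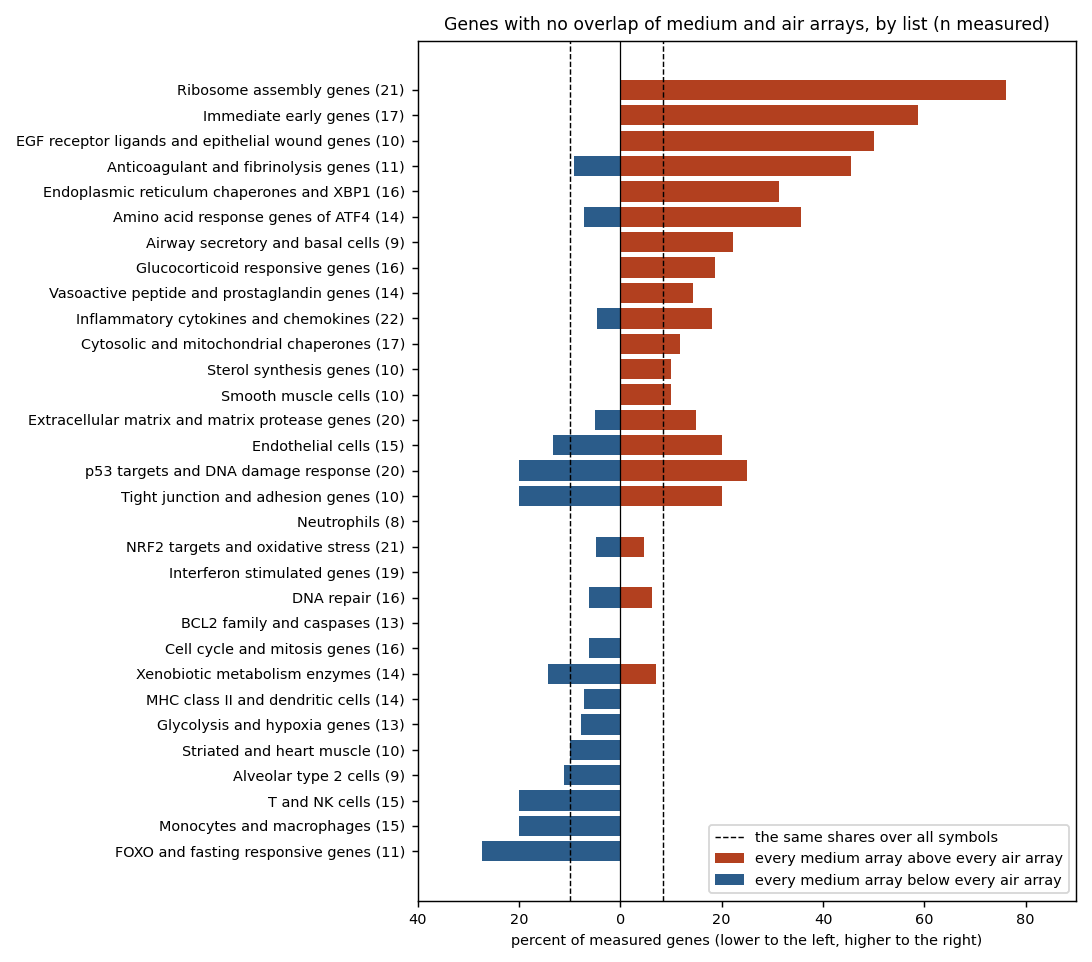
Share of the measured genes of each list with at least 8 genes for which every medium array was above every air array (red, to the right) or below every air array (blue, to the left) in the median lobe, on the normalized scale. Dashed lines mark the same shares over all 6765 symbols, 8.46% higher and 9.98% lower. Ribosome assembly genes (16 of 21) and immediate early genes (10 of 17) have the longest bars to the right, and FOXO and fasting responsive genes (3 of 11) the longest to the left. Lists share some genes, such as DUSP1 and PLAU.

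The apical and caudal lobes of the same animals were set beside the median lobe. The same test called 0 probe sets in the apical lobe (1384, or 5.77%, at an unadjusted p under 0.05, 3 medium against 3 air animals) and 1, higher (0.00417%), in the caudal lobe (3714 unadjusted), a probe set of THBS1, with 1.69 ± 0.16 there and 1.71 ± 0.44 in the median lobe. FBXO32 differed by -1.52 ± 0.20 in the apical and -1.95 ± 0.23 in the caudal lobe, against -1.82 ± 0.27 in the median lobe, with every medium animal below every air animal in all 3 lobes. F3 differed by 1.48 ± 0.30 in the caudal lobe and 0.66 ± 0.28 in the apical lobe, where medium animal 42 had 1205 and animals 34 and 39 had 609.9 and 552.3, against 375.0 to 532.8 in air animals. TNFRSF12A differed by 1.28 ± 0.27 in the apical and 1.71 ± 0.35 in the caudal lobe, and GADD45G by 0.71 ± 0.36 and 1.01 ± 0.21.

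Other calls had smaller or opposite values in the other lobes. OSBPL3 differed by -0.04 ± 0.27 in the apical and -0.05 ± 0.23 in the caudal lobe, and NMB by 0.12 ± 0.24 and -0.48 ± 0.33. Of the 2 called probe sets of TNS3, the one with the larger fall differed by -0.15 ± 0.36 in the apical and -0.60 ± 0.45 in the caudal lobe, and the other by -0.47 ± 0.12 and -0.75 ± 0.15. EP400 differed by -0.64 ± 0.19 in the caudal lobe, against 0.71 ± 0.11 in the median lobe. LIF, apart in the median lobe, differed by -0.01 ± 0.15 and -0.0035 ± 0.14 in the other lobes. Each pair of values shares animals, and the difference between lobes needs its own test.

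That test, the response in the median lobe against the mean of the other 2 lobes with the animal as a block, called 0 of 23999 probe sets with limma (2099, or 8.75%, at an unadjusted p under 0.05). The smallest adjusted p (0.102) was for COL1A2, a chain of collagen I, whose responses were 0.56 ± 0.26 in the median, -0.22 ± 0.20 in the apical and -0.33 ± 0.17 in the caudal lobe, a contrast of 0.81 ± 0.12. The next were CD46, a complement regulator (0.72 ± 0.14), DDX27, a nucleolar helicase (0.54 ± 0.10), a probe set of the calnexin gene CANX (1.11 ± 0.23), GJB5, a connexin (-0.95 ± 0.20), and a probe set of LOC100621559 (-0.81 ± 0.16), at an adjusted p of 0.269 for each. NOP56 had a contrast of 0.60 and the ribosome assembly list a median of 0.24 in this test, with 0 members called. The calls of the median lobe were therefore not shown to be particular to it, and the median lobe had 4 medium animals where each other lobe had 3.

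**Figure D5:**
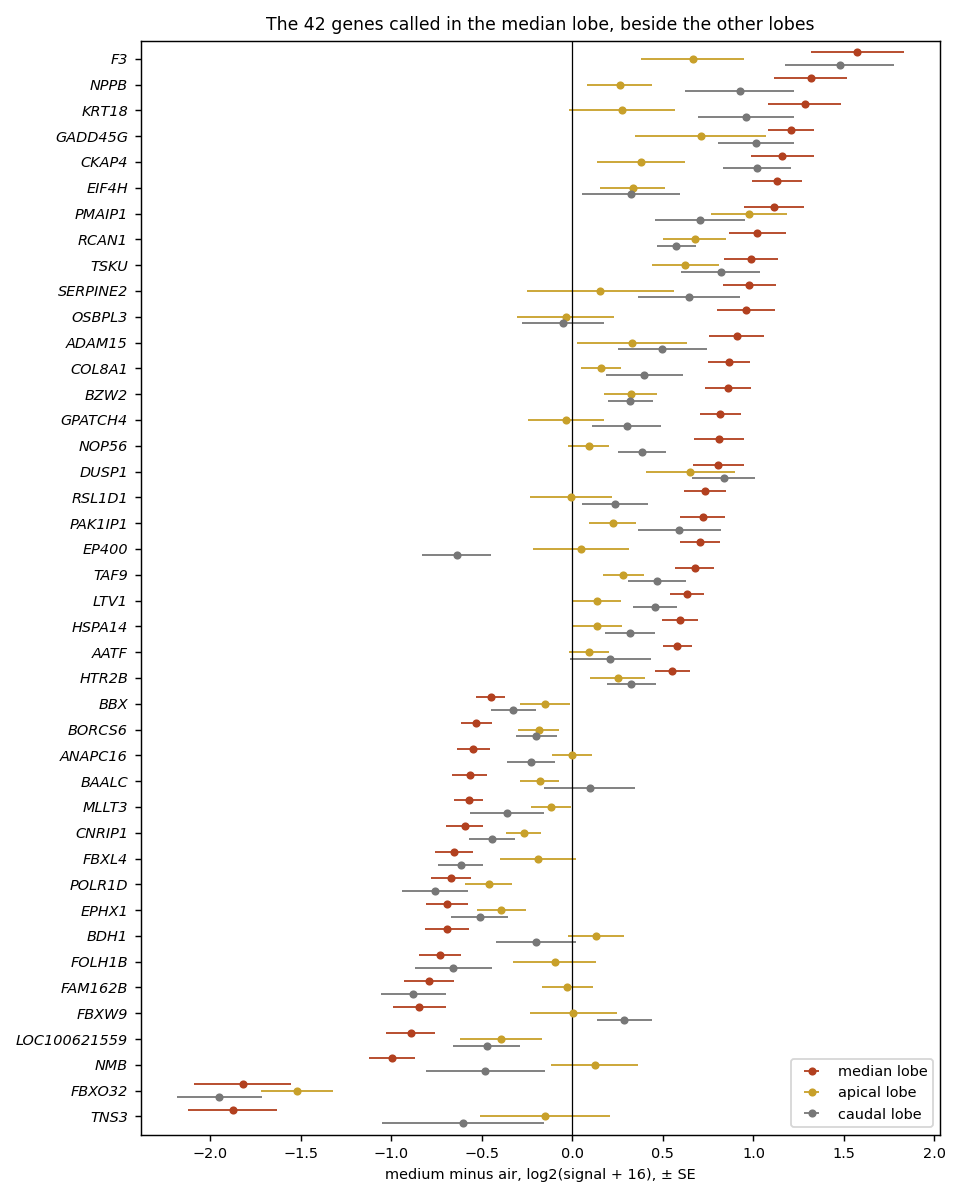
Difference of medium minus air on the log2(signal + 16) scale, ± SE, for the 42 genes called in the median lobe, in the median (red), apical (yellow) and caudal (grey) lobes. The genes were chosen by their median-lobe values, so those values tend to be more extreme by selection, though not for every gene. FBXO32 lies near -1.82, -1.52 and -1.95 in the 3 lobes, while OSBPL3 lies at 0.96 in the median lobe and near 0 in the others.

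In the low-dose group the median lobe gave 0 calls against air with limma (1663, or 6.93%, at an unadjusted p under 0.05). Both comparisons share the air animals, so their values are only set side by side. FBXO32 had 97.8, 137.2 and 185.5 in low animals, against 176.0 to 311.0 in air animals, a difference of -0.82 ± 0.29 for low and -1.82 ± 0.27 for medium. GADD45G had 211.8 to 232.3 in low animals, above the air animals and below the medium animals, with differences of 0.41 ± 0.14 for low and 1.21 ± 0.13 for medium. DUSP1 differed by 0.49 ± 0.15 for low and 0.81 ± 0.14 for medium. By contrast NOP56 (0.03 ± 0.15), the called probe sets of CKAP4 (-0.07 ± 0.19) and EIF4H (-0.04 ± 0.15), and NPPB (0.07 ± 0.22) had low-dose values near those of air.

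Medium set directly against low gave 5 calls (0.0208%), 4 higher (0.0167%) and 1 lower (0.00417%), with 0.0148% of symbols called by their brightest probe set, with 5370 probe sets at an unadjusted p under 0.05. Those with a symbol were the dimmer probe set of EIF4H, with a difference of 1.17 ± 0.14, and EP400 with 0.98 ± 0.11 (adjusted p = 0.0426 for each). F3 differed by 1.11 ± 0.26 (adjusted p = 0.0797), CKAP4 by 1.23 ± 0.17 (adjusted p = 0.0523) and FBXO32 by -1.004 ± 0.27 (adjusted p = 0.0947). Without any 1 of the 3 low animals, or without medium animal 41, 0 were called, and 1312 were called without medium animal 34.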

How the data were processed

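Signal was measured per probe set on 28 Affymetrix porcine arrays, 1 per animal and lobe. The authors deposited linear intensities, with a column for each array; the software and scaling target are not given in the sources used here, and the mean without the 2% at each end was 150.02 on every array. Of 24123 probe sets, 124 controls were left out and 23999 tested; 10069 had 1 gene symbol in GEO's platform annotation (6765 symbols), 198 several and 13732 none listed, and a symbol was represented in lists by its probe set of the highest mean. The labels name animals as replicates and give no batch or date.

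To the signals 16 was added, log2 was taken, and the result was quantile normalized over the 28 arrays. limma 3.58.1 in R 4.3.3 (lmFit, eBayes) was fitted to the 10 median-lobe arrays with 3 exposure groups. The lobe contrast used all arrays with the animal as a block, since lobes come from the same animals; deviations from group means correlated between lobes of an animal at 0.154 to 0.618. Python 3.11.15, numpy 2.4.6, pandas 2.3.3 and matplotlib 3.10.9 made summaries and plots. Tested on simulated data for medium minus air over 23999 probe sets, 26, 80 and 97 of 100 genes changed by 0.5, 1 and 2 (log2) were recovered, with 18 other calls. Noise was drawn independently for each probe set.

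Named genes were the 15 largest called rises and falls with 1 symbol, up to 4 called members of each list or the 2 largest differences where fewer than 2 were called, and a fixed set headed by F3 and FBXO32; further list members are named as examples, chosen after their values were seen. Members and lists were chosen with earlier results of these data known. Alternatives covered scaling, offset, dim probe sets, moderation, arrays fitted, the RNA index and each animal left out. Counts of genes without overlap were recomputed without medium animal 39 after seeing the data.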

Additional observations from a re-analysis of the deposited data

Results flagged for a closer look

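In 6 of 125 values tested in the medium group of the median lobe, 1 animal lay far from the other 3, the gap being above Dixon's critical value as a share of the group's range; chance gives about 1 in 20. Medium animal 41 was high for the cytokine genes IL1B (87.9, the others 54.4, 57.8 and 59.5) and IL6 (120.5, the others 22.4, 31.1 and 33.2) and for the urokinase gene PLAU (536.3, the others 337.3, 337.7 and 348.7). Medium animal 34 was low for the surfactant gene SFTPC (2721, the others 3154, 3320 and 3481) and high for the ciliated cell marker SPA17 (129.5, the others 48.3, 49.9 and 51.6). Medium animal 42 was low for the tight junction gene TJP1 (35.7, the others 69.8, 73.8 and 76.0).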

How the results depend on the processing

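For medium against air in the median lobe, limma called 97 probe sets, against 62 with median-centred arrays, 12 with an offset of 1, 231 among the brighter probe sets, 869 with all 28 arrays and a random animal effect, 6 after adjusting for the RNA index and 0 with only the 2 groups (3828 at an unadjusted p under 0.05). Leaving out 1 animal gave 0 to 398, with 0 without air animals 28 or 29 or medium animal 41, 4 without medium animal 42, 8 without air animal 44, 11 without medium animal 39 and 398 without medium animal 34. Fewer samples enter those fits; otherwise the cause was not tested. The scaling as deposited (74), quantiles of the 10 arrays (95) and trend with robust moderation (128) stayed within 1.5 times. Low against air had 0 calls, 1 with an offset of 1, and 0 to 1 leaving out an animal (1 without air animal 44). Medium against low had 5 calls, 1 with the deposited scaling, 54 with median-centred arrays, 2 with an offset of 1, 59 among brighter probe sets, 55 with trend and robust moderation, 27 with only the 2 groups, 1522 with a random animal effect, 2 with the RNA index, and 0 to 1312 leaving out an animal, the most without medium animal 34. The apical lobe had 0 to 1 (1 without medium animal 34), and the caudal lobe 0 with only the 2 groups and 0 to 244 leaving out an animal (244 without medium animal 34). The lobe contrast had 0 calls with the animal as replicate block and 0 with no replicate block (992 at an unadjusted p under 0.05), and 0 to 3 leaving out an animal. The RNA index difference ranged over -0.000847 (without medium animal 39) to 0.568. Among single named genes, those that changed sign were IL1B (-0.25 to 0.0699 leaving out an animal, highest without air animal 28) and TYMS (-0.026 to 0.83, lowest without medium animal 34). In the simulated data for medium against air, 26 of 100 changes of 0.5 (log2) were recovered, against 80 of 100 changes of 1, so smaller changes were more often missed there. The simulated noise was independent between probe sets, without deviations shared by the genes of an animal, so recovery on the real arrays can differ.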
